A study of Mus musculus with 12 samples.

Results

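The enzymes and transporters of glycolysis and the other target genes of the hypoxia response were followed as a set of 40 genes, chosen by symbol among the 23106 genes of a table of cultured mouse colon fibroblasts. Of these, 25 are glycolysis members (glucose and lactate carriers, the enzymes between glucose and lactate, and kinases that hold pyruvate back from the mitochondria), and 15 are other HIF target members (subunits and oxygen sensors of the hypoxia-inducible factor and genes it is known to switch on). All 12 libraries came from C57BL/6 mice 12 weeks old and formed 3 groups of 4. The WT-labelled group carried a guide named sgScr, the knockout-labelled group was Prkcz-/- with the same guide, and the Sox2-guide group was Prkcz-/- with sgSox2, so that both Prkcz-/- groups share the Prkcz label and differ in the guide. Protein kinase C zeta, a signalling kinase, is the product of Prkcz, and Sox2 is a transcription factor known from stem cells. Cells were grown in air with CO2 added and no other treatment, in medium with 10% fetal bovine serum, and were taken 24 h after plating at about 80% confluency, so low oxygen was not one of the conditions. How the guides were delivered, whether a line was a clone or a pool, and whether the replicates, called biological by the submitters, were separate animals or cultures is not given by the labels. The p-values therefore measure the spread between these libraries.

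Glycolysis splits glucose into pyruvate in the cytosol and yields a little ATP without oxygen. Lactate dehydrogenase then turns pyruvate into lactate, which leaves through monocarboxylate carriers, or pyruvate enters the mitochondria through pyruvate dehydrogenase, which the Pdk kinases switch off. Several steps have isozymes, near-equivalent enzymes encoded by different genes and used to different degrees by different tissues. The hypoxia-inducible factor pairs an alpha subunit with ARNT. In oxygen, EGLN prolyl hydroxylases mark the alpha subunit for destruction. Without oxygen the alpha subunit persists, enters the nucleus and raises most genes of glycolysis and, outside glycolysis, some of its own hydroxylases. Because that control acts on the protein, the Hif1a transcript does not report how much of the factor is present. Fibroblasts that are activated or lie in tumours are known for a high use of glucose.

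Reads were tags of the 3′ ends of messenger RNA. A normalised read here is 1 of 10000000 reads assigned to genes, as the authors scaled each library, and 1 sequenced read was worth 1.92 to 3.75 of them. Depth was 2.67 to 5.20 M reads per library. The Prkcz label was not borne out by these tags: Prkcz had 0 reads with the WT label, 32 with the knockout label and 54 with the Sox2 guide (0, 21.3 ± 8.03 and 34.8 ± 11.8 normalised reads). Such a tag can lie outside the stretch that was deleted and then does not check the deletion. Why the WT-labelled libraries held 0 reads of Prkcz was not tested. Every direction below is therefore a direction between labels. Sox2 stood at 1.72 ± 2.00, 1347 ± 76.4 and 0 normalised reads in the same order. Fibroblast markers, 10 of 10 detected, summed to 56262 to 60187 normalised reads with the WT label, 138773 to 140418 with the knockout label and 61184 to 66837 with the Sox2 guide, with Lum at 0 in the last group. The list did not move as one: Col1a1 ran from 5520 to 6216, 54855 to 61467 and 10182 to 14137 normalised reads and Fn1 from 12873 to 13522, 41201 to 43530.0 and 9241 to 11918 in these groups, while Dcn was highest with the WT label (1321 to 1514, 35.6 to 83.3 and 15.4 to 44.5), as was Thy1 (835 to 1025, 139.96 to 155 and at most 1.92), and Vim was lowest with the knockout label (18241 to 19337, 13397 to 15877 and 20159 to 23699). Smooth muscle markers, 5 of 5 detected, summed to 118 to 138, 741 to 770.2 and 9.61 to 15.6 normalised reads, with Myh11 at 0 in the first and last groups. Lmod1 alone made up most of the knockout-labelled sum (629 to 685, against at most 13.1 and 4.45), while Actg2 (45.5 to 101.8, 40.7 to 48.5 and 1.92 to 7.49) and Cnn1 (29.9 to 64.999, 34.6 to 78.2 and 4.45 to 7.69) overlapped between the first 2 groups. Mesothelium markers, 4 of 5 detected, summed to 1136 to 1296, 10.2 to 16.2 and 296 to 498, with Upk3b and Wt1 at 0 in the first and last groups and Lrrn4 throughout, and Msln made up most of the sum with the WT label and the Sox2 guide (1042 to 1174, at most 3.13 and 284 to 479). Epithelium markers, 7 of 8 detected, summed to 125 to 171, 2.92 to 15.6 and 11.1 to 28.8, with Krt20 at 0 throughout. Krt19 made up most of the WT-labelled sum (65.7 to 126, at most 9.39 and 7.49 to 19.2), and as it is also on the mesothelium list it entered both sums. Krt18 was at 25.3 to 39.4, at most 6.26 and 0, and Epcam reached at most 10.8. Endothelium markers, 4 of 6 detected, summed to 23.9 to 42.7, 19.4 to 26.2 and 88.4 to 114, without a read of Emcn or Cldn5. Kdr carried the Sox2-guide sum (2.99 to 19.7, 9.71 to 18.8 and 84.6 to 114), whereas Cdh5 was at 12.99 to 22.998 with the WT label and at 0 in both Prkcz-/- groups, and Tek was at 0 with the Sox2 guide. Markers of enteric glia and neurons, 6 of 6 detected, summed to at most 361, 787 and 504 in the 3 groups. Tubb3 made up most of these sums (227 to 309, 601 to 773 and 364 to 415). Elavl4 was instead highest with the Sox2 guide (9.74 to 25.3, at most 9.39 and 55.8 to 109), and S100b, Sox10 and Gfap reached at most 3.24. Markers of interstitial cells of Cajal, 2 of 3 detected, summed to 138 to 215, 58.2 to 81.6 and 28.9 to 49.4, with Kit at 0 throughout, Ano1 at 98.6 to 173, 3.13 to 11.7 and at most 4.94, and Etv1 at 25.3 to 50.9, 51.8 to 69.98 and 28.9 to 44.5. The nuclear RNA Malat1 took 0.472%, 1.42% and 0.505% of reads, and ribosomal protein genes 3.67%, 2.15% and 4.34%. These levels differed between the groups, as those of the genes below did, and their part in the results was not tested. In bulk libraries, fewer cells of a type and less RNA per cell cannot be told apart. Replicate 1 of the Sox2-guide group stood apart, with 4.29% of reads from mitochondrial genes against 9.39% to 10.3% in its 3 companions, and was the highest of its group for 14 of 25 glycolysis members. Values without it are given for some results only.

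Glycolysis transcripts took a smaller share of reads in the knockout-labelled libraries than in the other 2 groups. Together the 25 genes took 0.263% to 0.270% of all reads with the WT label, 0.106% to 0.119% with the knockout label and 0.208% to 0.295% with the Sox2 guide (the highest was replicate 1). The knockout-labelled libraries lay below all others. The WT-labelled and Sox2-guide groups overlapped only through Sox2-guide replicate 1. Replicates 2, 3 and 4 of that group, at 0.208%, 0.232% and 0.224%, lay below all WT-labelled libraries. In the knockout-labelled against the WT-labelled libraries, 15 of 25 glycolysis members fell, 5 rose and 5 were not called, where a call is an adjusted p under 0.05 in a limma fit over 12676 genes. Of all genes tested, 67% were called, 37.6% higher and 29.4% lower. The members' median log2 change was -1.11, against 0.12 for all tested genes. A fall of at least 2-fold was called for 12 glycolysis members and a rise of that size for 4, against 13.2% and 20.7% of all genes. The groups did not overlap for 17 glycolysis members that were lower and 4 that were higher, where 66% of all genes had groups apart, 36.8% higher and 29.2% lower. The 5 that rose were the isozymes Pfkm, Pfkp, Aldoc, Eno2 and Ldhb, and 3 rose without WT-labelled replicate 3 or knockout-labelled replicate 1 or 3. Of the other HIF target members, 14 of 15 passed the filter of a mean of 10 normalised reads. Among these 14, 9 fell, 3 rose and 2 were not called, with a median log2 change of -0.48. Quantile scaling moved the median of all genes from 0.12 to -0.045, a shift of -0.17. Relative to the median of all genes, the glycolysis median was -1.23 as deposited and -1.17 after quantile scaling, and that of the others was -0.60 and -0.42. After quantile scaling 3 glycolysis members were called higher and 17 lower, against 32.2% and 35.1% of all genes, so that the excess of higher calls among all genes turned.

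With the Sox2 guide, measured against the knockout-labelled libraries, 14 glycolysis members rose, 6 fell and 5 were not called. Among all genes 60.7% were called, 30.5% higher and 30.2% lower, and the medians were 0.86 for the members and -0.013 for all genes. The other HIF target members had 6 that rose, 4 that fell and 4 not called, with a median of 0.080, and 2 fell without knockout-labelled replicate 1 or Sox2-guide replicate 3. The 2 groups were apart for 14 glycolysis members that were higher and 8 that were lower, against 53.6% of all genes (26% and 27.6%), and changes of at least 2-fold were called for 10 and 4, against 11.1% and 15.7%. Without replicate 1 of the Sox2-guide group the glycolysis counts were 15 and 7, and the other counts 6 and 5, against 30.1% and 31.6% of all genes. Against the WT-labelled libraries, the Sox2-guide group had 5 glycolysis members higher, 9 lower and 11 not called, a median of -0.19, and 3 higher and 9 lower among the other 14, a median of -0.40. Without Sox2-guide replicate 1, 4 glycolysis members were higher and 11 lower, against 29.5% and 23.5% of all genes. In that comparison 52% of all genes were called, 30.1% higher and 22% lower, with a median of 0.076. Here 5 glycolysis members were higher and 7 lower with groups apart, against 46.6% of all genes (27% and 19.6%), and 2 and 4 passed at 2-fold or more, against 10.7% and 8.3%. The 3 comparisons share libraries, the knockout-labelled group entering the first 2, so that a gene high or low in that group by chance would move in opposite directions in them.

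**Figure D1:**
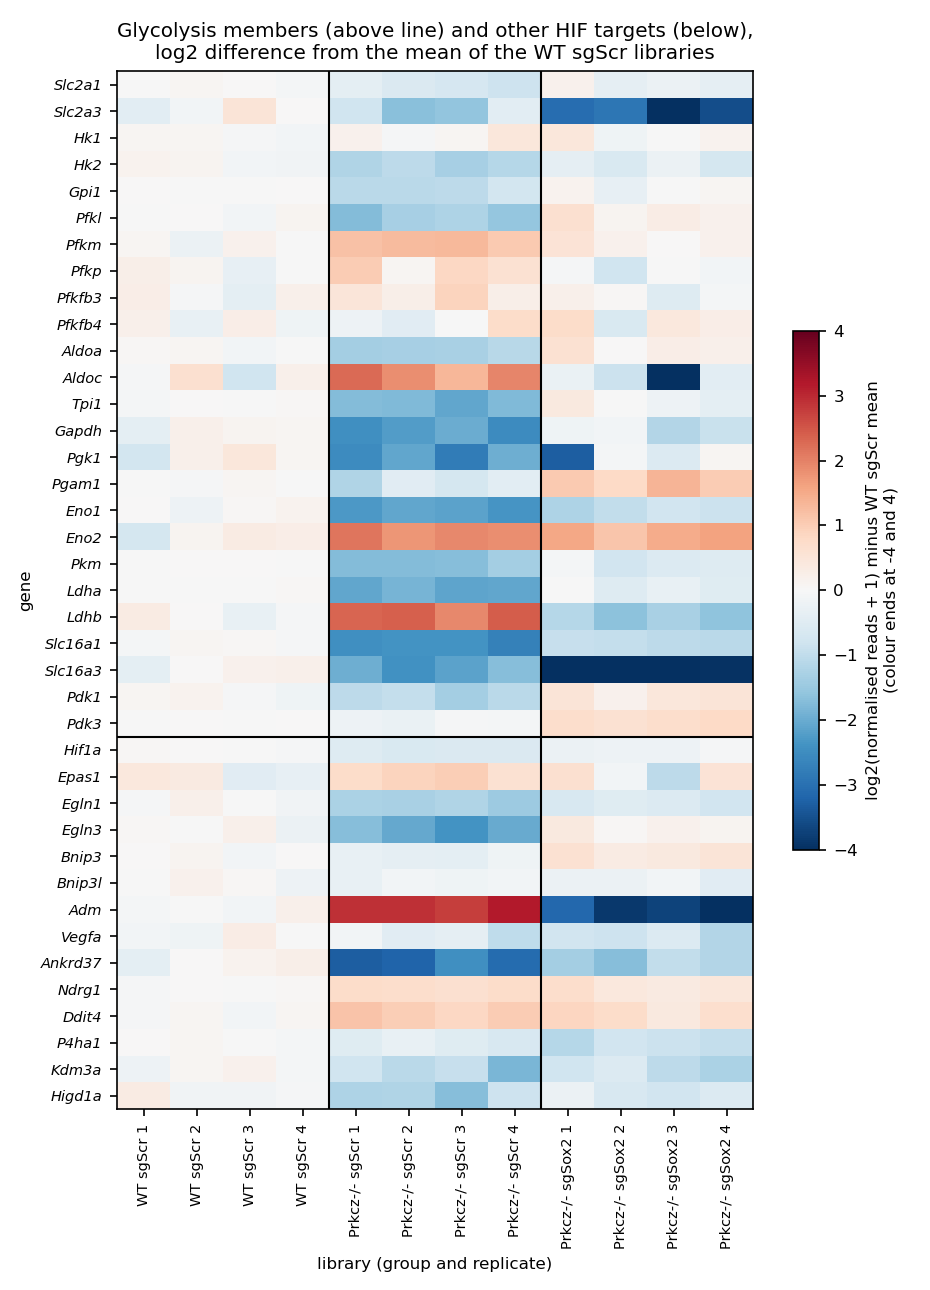
Each row is a member and each column a library, and colour is the difference of log2(normalised reads + 1) from the mean of the 4 WT-labelled (WT sgScr) libraries, with the colour scale ending at -4 and 4. The knockout-labelled columns (Prkcz-/- sgScr) are blue for most glycolysis rows and red for Ldhb, Eno2, Aldoc and Pfkm, and Adm is red there and dark blue in the Sox2-guide columns (Prkcz-/- sgSox2).

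The promoters of 6 members are shown because their genes carry the results: Slc16a1, Ldha and Eno1 are the 3 glycolysis members, and Adm, Egln1 and Egln3 the 3 other HIF target members, with the smallest adjusted p between the knockout-labelled and WT-labelled libraries among those with a match. Windows run from 250 bases before to 50 bases after a start site and come from RefSeq on GRCm38.p6. Capitals mark the core letters that the hypoxia-inducible factor is known to bind, ACGTG or GCGTG, on either strand, so that CACGT and CACGC are marked as well. The palindrome CACGTG, an E-box that MYC and related factors also bind, holds ACGTG on both strands and counts on both.
Slc16a1 (chr3:104638414-104638713, plus strand): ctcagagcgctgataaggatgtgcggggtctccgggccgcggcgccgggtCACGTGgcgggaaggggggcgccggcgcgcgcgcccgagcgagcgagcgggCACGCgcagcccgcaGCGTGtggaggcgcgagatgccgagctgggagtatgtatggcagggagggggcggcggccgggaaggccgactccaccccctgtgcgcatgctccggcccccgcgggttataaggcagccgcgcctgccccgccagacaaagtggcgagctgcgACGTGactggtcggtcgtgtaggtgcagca
Ldha (chr7:46845554-46845853, plus strand, 1 of its 2 windows): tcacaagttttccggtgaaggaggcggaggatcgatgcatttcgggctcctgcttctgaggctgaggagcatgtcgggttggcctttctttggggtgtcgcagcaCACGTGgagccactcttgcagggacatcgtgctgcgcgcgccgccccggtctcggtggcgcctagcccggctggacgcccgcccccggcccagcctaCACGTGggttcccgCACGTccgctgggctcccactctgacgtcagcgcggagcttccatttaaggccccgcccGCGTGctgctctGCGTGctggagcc
Eno1 (chr4:150236458-150236757, plus strand, 1 of its 3 windows): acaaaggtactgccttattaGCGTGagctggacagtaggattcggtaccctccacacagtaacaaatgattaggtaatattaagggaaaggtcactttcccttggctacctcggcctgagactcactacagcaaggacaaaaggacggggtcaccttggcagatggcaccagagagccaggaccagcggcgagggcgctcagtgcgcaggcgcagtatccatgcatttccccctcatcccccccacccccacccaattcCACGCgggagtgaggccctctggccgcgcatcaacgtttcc
Adm (chr7:110627407-110627706, plus strand): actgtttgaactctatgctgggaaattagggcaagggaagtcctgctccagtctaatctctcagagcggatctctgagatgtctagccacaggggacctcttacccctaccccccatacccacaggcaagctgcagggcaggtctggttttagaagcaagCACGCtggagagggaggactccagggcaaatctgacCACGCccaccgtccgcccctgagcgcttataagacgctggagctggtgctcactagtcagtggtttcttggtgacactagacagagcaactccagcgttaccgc
Egln1 (chr8:124949205-124949504, minus strand): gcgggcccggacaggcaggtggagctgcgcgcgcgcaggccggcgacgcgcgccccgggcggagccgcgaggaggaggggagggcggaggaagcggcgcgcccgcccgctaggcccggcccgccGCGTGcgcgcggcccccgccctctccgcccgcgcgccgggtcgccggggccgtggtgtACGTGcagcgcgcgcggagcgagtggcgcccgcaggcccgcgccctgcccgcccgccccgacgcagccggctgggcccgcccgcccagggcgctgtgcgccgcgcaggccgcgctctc
Egln3 (chr12:54203825-54204124, minus strand): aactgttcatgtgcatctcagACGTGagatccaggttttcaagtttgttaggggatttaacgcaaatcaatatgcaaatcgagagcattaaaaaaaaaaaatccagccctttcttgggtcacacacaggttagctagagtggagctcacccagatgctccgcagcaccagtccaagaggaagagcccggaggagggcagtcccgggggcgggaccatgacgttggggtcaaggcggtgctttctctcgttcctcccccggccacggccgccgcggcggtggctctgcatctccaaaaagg
The printed windows held 5, 7, 2, 2, 2 and 1 matches in this order. The palindrome occurred in Slc16a1 and at 2 places in Ldha. Among the members, 36 of 40 had a window, and Slc2a3, Epas1, Bnip3l and Ndrg1 had none. At least 1 window with the core letters was found for 21 of 24 glycolysis members and 12 of 12 other members, against 68.9% of the 9349 tested genes with a window. By direction in the knockout-labelled against the WT-labelled libraries, the letters were present for 22 of 24 members that fell, 6 of 7 that rose and 4 of 4 not called. Of single windows, 43.8% of all 32851 in the table held the letters, 62.7% of those of tested genes, 78.4% of those of glycolysis members and 80% of those of the others, while their median GC contents were 52.7%, 61%, 61.3% and 69%. Matches are letters in a window and do not show binding.

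**Figure D2:**
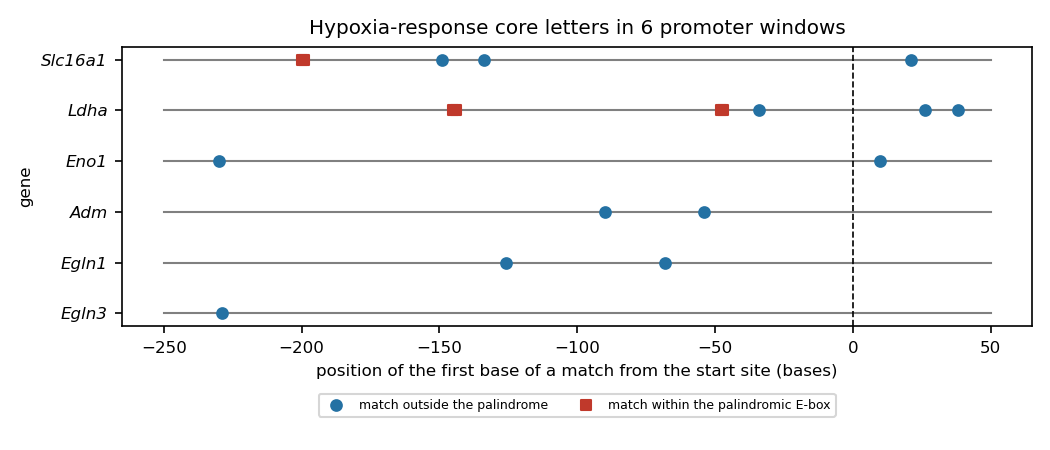
Each line is a promoter window of 300 bases, the horizontal axis is the position of the first base of a match from the start site in bases, and markers are matches outside (circles) or inside (squares) the palindromic E-box. Ldha has the most matches of the 6 windows, at 7, and Egln3 has 1.

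The 2 glucose carriers moved in opposite directions with the Sox2 guide. Slc2a1 encodes GLUT1, the carrier most cells use for basal glucose uptake. It was at 1013 ± 38.7 (mean ± SD, n = 4, as for all means here), 665 ± 88.04 and 897 ± 171 normalised reads in the WT-labelled, knockout-labelled and Sox2-guide libraries. It fell in the knockout-labelled group (log2 -0.62 ± 0.12 (SE, as below), adjusted p = 0.00026) and rose with the Sox2 guide (log2 0.42 ± 0.12, adjusted p = 0.0062), without overlap in either comparison. Slc2a3 encodes GLUT3, a carrier of high affinity. Its level was 40.4 ± 11.8, 18.9 ± 8.36 and 2.69 ± 1.98 normalised reads with the WT label, the knockout label and the Sox2 guide, the last resting on 5 reads. Slc2a3 did not pass in the first comparison (log2 -1.11 ± 0.52, adjusted p = 0.068), although the groups did not overlap, and passed with edgeR, DESeq2, quantile scaling and a pseudocount of 5. It fell with the Sox2 guide (log2 -2.59 ± 0.52, adjusted p = 0.00039).

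The first steps of glycolysis trap glucose as a phosphate and rearrange it. Hk2 and Gpi1 fell here in the knockout-labelled group, and Hk1 was not called. Hk2 encodes the inducible hexokinase. Its values were 610.4, 592, 509 and 493 normalised reads with the WT label, 238, 265, 219 and 246 with the knockout label and 427, 361, 465 and 336 with the Sox2 guide. All knockout-labelled values lay below all others, 2.28-fold lower than the WT-labelled mean (log2 -1.18 ± 0.12, adjusted p = 3e-07), and Hk2 rose with the Sox2 guide (log2 0.70 ± 0.12, adjusted p = 0.00012). The Sox2-guide values remained below the WT-labelled ones without overlap (log2 -0.48 ± 0.12, adjusted p = 0.0039). Hk1, the housekeeping hexokinase, was not called in any comparison (log2 0.17 ± 0.13, log2 -0.060 ± 0.13 and log2 0.11 ± 0.13 in the order knockout-labelled against WT-labelled, Sox2-guide against knockout-labelled, and Sox2-guide against WT-labelled), with means of 732 ± 52.8, 828 ± 120.2 and 799 ± 153 normalised reads with the WT label, the knockout label and the Sox2 guide. Gpi1, glucose phosphate isomerase, fell from 940.2 ± 16.4 to 478 ± 57.1 (log2 -0.98 ± 0.11, adjusted p = 5.1e-07) and stood at 926 ± 124 with the Sox2 guide (log2 0.95 ± 0.11, adjusted p = 1e-06).

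Phosphofructokinase, which commits sugar to glycolysis, is built of liver, muscle and platelet subunits. Pfkl, the liver type, was at 494, 506, 461 and 536 normalised reads with the WT label, 148, 198, 209.7 and 172 with the knockout label and 779, 541, 618 and 556 with the Sox2 guide. It was 2.74-fold lower in the knockout-labelled group (log2 -1.46 ± 0.13, adjusted p = 6.6e-08) and 3.43-fold higher with the Sox2 guide (log2 1.77 ± 0.13, adjusted p = 9.3e-09), and the knockout-labelled values overlapped with none of the others. Pfkm, the muscle type, ran the other way, at 169, 134, 179.6 and 158 normalised reads with the WT label, 359.8, 382, 388 and 330.1 with the knockout label and 235, 178, 161 and 178 with the Sox2 guide. It rose 2.28-fold (log2 1.19 ± 0.14, adjusted p = 1.5e-06) and fell 1.94-fold (log2 -0.97 ± 0.14, adjusted p = 1.9e-05), again without overlap. Pfkp, the platelet type, was at 114 ± 18.6, 181 ± 46.8 and 97.6 ± 22.3 normalised reads with the WT label, the knockout label and the Sox2 guide and rose in the knockout-labelled group with overlapping values (log2 0.63 ± 0.23, adjusted p = 0.021), a call lost under quantile scaling and without knockout-labelled replicate 1 or 3 or WT-labelled replicate 3. It fell with the Sox2 guide (log2 -0.88 ± 0.23, adjusted p = 0.0031). Its 3′ end lies on the other strand of Pitrm1, as Pfkm lies on that of Senp1 and Hk1 on that of Hk1os, and whether the counting used strand is not given, so these counts are uncertain. Pfkfb3 and Pfkfb4, which set the level of a sugar phosphate that activates phosphofructokinase, were not called in any comparison. With the Sox2 guide against the knockout label, Pfkfb3 was lower without overlap (log2 -0.54 ± 0.24, adjusted p = 0.058). It passed there with TMM scaling, scaling without mitochondrial genes, edgeR and without Sox2-guide replicate 1. Pfkfb3 was at 60.8 ± 12.1, 84.3 ± 19.9 and 57.4 ± 11.9 normalised reads with the WT label, the knockout label and the Sox2 guide, and Pfkfb4 at 45.3 ± 8.88, 47.2 ± 18.8 and 54.6 ± 19.2 normalised reads with the WT label, the knockout label and the Sox2 guide, a gene whose sign in the first comparison (log2 0.0058 ± 0.32) turned with TMM and quantile scaling.

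Aldolase opens the lower steps by splitting the sugar. Aldoa, the widespread aldolase, was at 4046, 4171, 3675 and 3906 normalised reads with the WT label, 1529, 1566, 1602 and 1832 with the knockout label and 6071, 4013, 4767 and 4581 with the Sox2 guide. It fell 2.42-fold (log2 -1.28 ± 0.11, adjusted p = 1.8e-08) and rose 2.98-fold with the Sox2 guide (log2 1.56 ± 0.11, adjusted p = 2.3e-09), with no overlap between the knockout-labelled values and the rest. Aldoa was called higher with the Sox2 guide than with the WT label, with overlapping values (log2 0.28 ± 0.11, adjusted p = 0.033). Aldoc, the brain-type aldolase, was at 35.7, 57.8, 20.95 and 42.7 normalised reads with the WT label, 181, 137, 93.9 and 146 with the knockout label and 30.8, 20.03, 0 and 27.2 with the Sox2 guide. The knockout-labelled values were the highest, and the call in the first comparison was marginal (log2 1.85 ± 0.78, adjusted p = 0.047) and was lost under TMM and quantile scaling and in 7 of 12 fits that left out 1 library. Aldoc fell with the Sox2 guide (log2 -3.55 ± 0.78, adjusted p = 0.00093). Tpi1, triose phosphate isomerase, was at 2477, 2604, 2579.9 and 2701 normalised reads with the WT label, 779, 767, 617 and 764 with the knockout label and 3422, 2570.4, 2263 and 1978 with the Sox2 guide. It fell 3.54-fold (log2 -1.83 ± 0.13, adjusted p = 2.7e-09), rose 3.498-fold (log2 1.78 ± 0.13, adjusted p = 5.9e-09) and did not pass with the Sox2 guide against the WT label (log2 -0.048 ± 0.13, whose sign turned without Sox2-guide replicate 3 or 4). Tpi1 overlaps Spsb2 on the other strand.

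Gapdh and Eno1 fell as well, but their tags can match copies elsewhere in the genome. Of the 226 windows of 75 bases in the last 300 bases of the Gapdh transcript, 158 occur in 46 other annotated genes, and 201 of 226 of those of Eno1 in Eno1b. Gapdh also overlaps Iffo1 on the other strand. Gapdh, the dehydrogenase of the pathway, was at 231, 350.3, 329 and 319 normalised reads with the WT label, 54.9, 64.1, 75.1 and 51.8 with the knockout label and 271, 283, 135 and 163 with the Sox2 guide. The knockout-labelled values were the lowest without overlap (log2 -2.30 ± 0.23, adjusted p = 1.7e-07), and Gapdh rose with the Sox2 guide (log2 1.72 ± 0.23, adjusted p = 6.6e-06). Gapdh was called lower with the Sox2 guide than with the WT label, with overlapping values (log2 -0.58 ± 0.23, adjusted p = 0.043). Eno1, the widespread enolase, was at 591, 506, 608 and 644 normalised reads with the WT label, 118, 137, 131 and 113 with the knockout label and 248, 296, 345 and 321 with the Sox2 guide. It was 4.699-fold lower in the knockout-labelled group (log2 -2.22 ± 0.13, adjusted p = 2.1e-10) and 2.42-fold higher with the Sox2 guide (log2 1.26 ± 0.13, adjusted p = 3.2e-07), which left it below the WT-labelled values without overlap (log2 -0.96 ± 0.13, adjusted p = 1.2e-05). Its copy Eno1b held 5, 1 and 8 reads in the 3 groups. Eno2, the neuron-type enolase, was at 25.98, 46.9, 53.9 and 52.6 normalised reads with the WT label, 195, 149, 166 and 159 with the knockout label and 127, 93.5, 124 and 133 with the Sox2 guide. It rose 3.73-fold in the knockout-labelled group (log2 1.92 ± 0.23, adjusted p = 1.2e-06) and stayed above the WT-labelled values with the Sox2 guide (log2 1.43 ± 0.23, adjusted p = 5.7e-05). The step between these 2 groups of Prkcz-/- label did not pass (log2 -0.49 ± 0.23, adjusted p = 0.072), though it did with edgeR and DESeq2.

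Pgk1, Pgam1 and Pkm fell in the knockout-labelled libraries too. Pgk1, phosphoglycerate kinase, was at 16.2, 32.5, 38.9 and 29.6 normalised reads with the WT label, 4.07, 5.83, 3.13 and 6.47 with the knockout label and 1.92, 26.7, 18.7 and 29.6 with the Sox2 guide, from 36, 7 and 30 reads. It fell in the knockout-labelled group without overlap (log2 -2.34 ± 0.61, adjusted p = 0.0029). Replicate 1 of the Sox2 guide was the lowest library of all, so that this group overlapped the knockout-labelled one, and its change with the Sox2 guide did not pass (log2 1.38 ± 0.61, adjusted p = 0.061) but did with edgeR, DESeq2 and without replicate 1. Pgam1, phosphoglycerate mutase, was at 110.4, 108, 119.7 and 112 normalised reads with the WT label, 48.8, 81.6, 68.8 and 84.1 with the knockout label and 235, 198, 292 and 229.7 with the Sox2 guide. It fell modestly (log2 -0.69 ± 0.19, adjusted p = 0.0037), rose 3.37-fold with the Sox2 guide (log2 1.75 ± 0.19, adjusted p = 5.1e-07) and then lay above all WT-labelled values (log2 1.06 ± 0.19, adjusted p = 0.00016). Pkm, pyruvate kinase, was at 6828, 6940.4, 7018 and 6853 normalised reads with the WT label, 2081, 2070.2, 2128 and 2715 with the knockout label and 6591, 4030.3, 4688 and 4878 with the Sox2 guide. It fell 3.07-fold (log2 -1.63 ± 0.12, adjusted p = 5.5e-09), rose 2.24-fold (log2 1.15 ± 0.12, adjusted p = 5.2e-07) and remained below the WT-labelled values without overlap (log2 -0.48 ± 0.12, adjusted p = 0.0038). The tags do not tell its splice forms apart.

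Lactate handling held the glycolysis members with the largest log2 changes between the knockout-labelled and WT-labelled libraries, downward in Slc16a1 and upward in Ldhb. Ldha (ENSMUSG00000063229, GRCm38 chr7:46841475-46855627, plus strand) encodes the lactate dehydrogenase subunit that favours making lactate. It was at 5143, 5189, 5241 and 5428 normalised reads with the WT label, 1242, 1438, 1214 and 1246 with the knockout label and 5201, 3634, 4268 and 3774 with the Sox2 guide. The knockout-labelled mean of 1285 ± 103 was 4.09-fold below the WT-labelled mean of 5250.1 ± 125 (log2 -2.03 ± 0.10, adjusted p = 2.4e-11), and the Sox2-guide mean of 4219 ± 709 was 3.28-fold above the knockout-labelled one (log2 1.70 ± 0.10, adjusted p = 3.4e-10). The Sox2-guide values overlapped the WT-labelled ones through replicate 1, and without that library their mean was 3892. With all libraries, Ldha was called lower with the Sox2 guide than with the WT label (log2 -0.33 ± 0.10, adjusted p = 0.011). Ldhb encodes the subunit that favours using lactate. It was at 107, 86.7, 68.8 and 82.1 normalised reads with the WT label, 433, 455, 329 and 463 with the knockout label and 38.5, 26.7, 33.7 and 27.2 with the Sox2 guide. Here the knockout-labelled values were the highest, 4.87-fold above the WT-labelled mean (log2 2.28 ± 0.19, adjusted p = 2.5e-08), and the Sox2-guide values were the lowest, 13.3-fold below the knockout-labelled mean (log2 -3.70 ± 0.19, adjusted p = 8.5e-11) and below all WT-labelled values (log2 -1.42 ± 0.19, adjusted p = 1.3e-05).

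The 2 monocarboxylate carriers fell together in the knockout-labelled group and parted with the Sox2 guide. Slc16a1 (ENSMUSG00000032902, chr3:104638668-104658462, plus strand) encodes MCT1, which moves lactate in either direction. It was at 1192, 1336, 1323 and 1225 normalised reads with the WT label, 232, 239, 241 and 194 with the knockout label and 663, 654, 611 and 603 with the Sox2 guide. It fell 5.603-fold (log2 -2.48 ± 0.094, adjusted p = 1.1e-12), had the smallest adjusted p of the glycolysis members in that comparison, and rose 2.79-fold with the Sox2 guide (log2 1.48 ± 0.094, adjusted p = 1e-09) to values that overlapped with neither other group. It overlaps Gm43581 on the same strand, so the counting could split its reads. Slc16a3 encodes MCT4, the lactate exporter of strongly glycolytic cells. It was at 97.4, 130.0, 144 and 148 normalised reads with the WT label, 32.5, 23.3, 28.2 and 38.8 with the knockout label and 0, 2.23, 0 and 7.41 with the Sox2 guide. It fell in the knockout-labelled group (log2 -2.05 ± 0.54, adjusted p = 0.0031) and further with the Sox2 guide (log2 -3.77 ± 0.54, adjusted p = 1.4e-05), where the 4 libraries held 4 reads in all. Pdk1 and Pdk3, the members among the kinases that switch off pyruvate dehydrogenase, were both highest with the Sox2 guide. Their relative Pdk2, outside the members, was highest with the knockout label, as given below. Pdk1 was at 494, 524, 458 and 414 normalised reads with the WT label, 228, 245, 182 and 220.0 with the knockout label and 671, 527, 648 and 679 with the Sox2 guide. It fell 2.16-fold in the knockout-labelled group (log2 -1.11 ± 0.12, adjusted p = 5.7e-07), rose 2.89-fold with the Sox2 guide (log2 1.53 ± 0.12, adjusted p = 1.8e-08) and then exceeded the WT-labelled values (log2 0.42 ± 0.12, adjusted p = 0.0092), a call lost with DESeq2. Pdk3, at 640.4 ± 11.3, 577 ± 44.4 and 1044 ± 61.6 normalised reads with the WT label, the knockout label and the Sox2 guide, was not called in the first comparison (log2 -0.15 ± 0.084) and rose with the Sox2 guide (log2 0.86 ± 0.084, adjusted p = 2e-07).

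Within each library, the balance between isozymes differed between groups. These ratios were chosen after the single genes had been seen and are given without a test. They set the same pair against itself across groups and say nothing of which enzyme is more abundant. The log2 ratio of Ldhb to Ldha was -6.23 to -5.57 with the WT label, -1.88 to -1.43 with the knockout label and -7.07 to -6.94 with the Sox2 guide. For Eno2 to Eno1 the ranges were -4.46 to -3.40, 0.12 to 0.72 and -1.65 to -0.96, so that the Sox2-guide libraries lay between the others. Pfkm to Pfkl gave -1.91 to -1.36, 0.88 to 1.27 and -1.93 to -1.60, with the first and last groups overlapping. Aldoc to Aldoa gave -7.39 to -6.15, -4.08 to -3.07 and -12.2 to -7.35, the lowest value coming from a library with no Aldoc read. Hk1 to Hk2 gave 0.35 to 0.47, 1.43 to 2.01 and 0.64 to 1.27. In each of these 5 pairs the knockout-labelled libraries were the highest and overlapped with no other library. The same held for Pfkp to Pfkl, at -2.35 to -1.88, -0.73 to 0.63 and -3.05 to -2.41, and for Pdk3 to Pdk1, at 0.32 to 0.64, 1.10 to 1.77 and 0.63 to 0.87. It did not hold for the other 3 pairs examined. Slc16a3 to Slc16a1 gave -3.60 to -3.04, -3.30 to -2.29 and -9.38 to -6.17, with the first 2 groups overlapping. Egln3 to Egln1 was lowest with the knockout label, at -2.92 to -2.48, -3.88 to -3.15 and -2.15 to -1.65. Bnip3 to Bnip3l gave -0.30 to 0.084, -0.39 to -0.14 and 0.38 to 0.87, again with the first 2 groups overlapping.

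**Figure D3:**
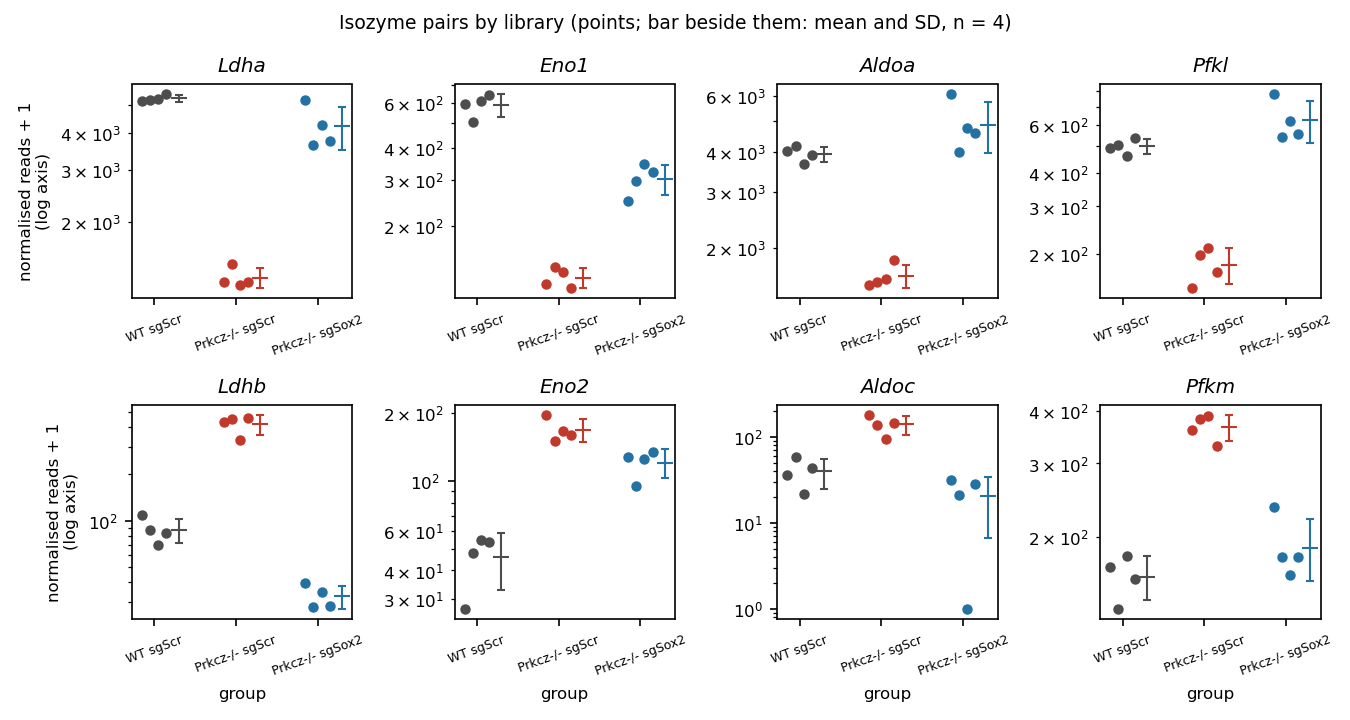
Points are libraries, bars beside them are the mean and SD of 4 libraries, and the vertical axes are logarithmic, in normalised reads + 1. Ldha, Eno1, Aldoa and Pfkl (upper row) are lowest in the knockout-labelled group (Prkcz-/- sgScr), and Ldhb, Eno2, Aldoc and Pfkm (lower row) are highest there.

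The transcripts of the alpha subunit Hif1a and of the hydroxylases Egln1 and Egln3 fell in the knockout-labelled libraries. Hif1a encodes the alpha subunit that oxygen controls in nearly all cells. It was at 2322, 2261, 2212 and 2185 normalised reads with the WT label, 1559, 1461, 1518 and 1501 with the knockout label and 1911, 1943, 1945 and 2176 with the Sox2 guide. The knockout-labelled values were the lowest without overlap, 1.49-fold below the WT-labelled mean (log2 -0.57 ± 0.069, adjusted p = 1.8e-06), and Hif1a rose with the Sox2 guide (log2 0.40 ± 0.069, adjusted p = 0.0001). The remaining gap to the WT-labelled libraries was called (log2 -0.17 ± 0.069, adjusted p = 0.047), but not in 10 of the 12 fits that left out 1 library. Epas1 encodes the alpha subunit HIF-2 alpha, prominent in endothelium. It was at 22.7, 21.7, 11.97 and 13.1 normalised reads with the WT label, 28.5, 32.1, 34.4 and 25.9 with the knockout label and 26.9, 15.6, 7.49 and 24.7 with the Sox2 guide. The Sox2-guide values overlapped both other groups, and no comparison passed (log2 0.81 ± 0.39, adjusted p = 0.076 for the first). Of the endothelial markers given above, Kdr was highest with the Sox2 guide and Cdh5 with the WT label.

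The 2 oxygen-sensing hydroxylases among the members, which are themselves targets of the factor, were low in the knockout-labelled libraries. Egln1 (ENSMUSG00000031987, chr8:124908587-124949324, minus strand) encodes the main sensor in most cells. It was at 851, 1015, 871 and 805 normalised reads with the WT label, 370.0, 356, 382 and 320.4 with the knockout label and 563, 625, 603 and 514 with the Sox2 guide. It fell 2.48-fold (log2 -1.31 ± 0.10, adjusted p = 8.1e-09) and rose 1.61-fold with the Sox2 guide (log2 0.69 ± 0.10, adjusted p = 2e-05), to values between the other groups without overlap. Egln3 (ENSMUSG00000035105, chr12:54178981-54203860, minus strand) encodes a hydroxylase that hypoxia induces strongly. It was at 139.6, 134, 156 and 115 normalised reads with the WT label, 40.7, 32.1, 25.04 and 32.4 with the knockout label and 179, 140.2, 154 and 146 with the Sox2 guide. It fell 4.18-fold (log2 -2.04 ± 0.19, adjusted p = 7.4e-08) and rose 4.75-fold (log2 2.23 ± 0.19, adjusted p = 3.6e-08), after which it did not pass against the WT-labelled libraries (log2 0.19 ± 0.19, adjusted p = 0.43) and overlapped them.

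Among targets that act on mitochondria, Higd1a had the largest change between the knockout-labelled and WT-labelled libraries. Higd1a, a small protein of the respiratory chain, was at 412, 299.7, 299 and 322 normalised reads with the WT label, 140.3, 143, 100.1 and 184 with the knockout label and 281, 214, 195 and 225 with the Sox2 guide. It fell 2.35-fold (log2 -1.25 ± 0.18, adjusted p = 1.2e-05) and rose 1.61-fold with the Sox2 guide (log2 0.70 ± 0.18, adjusted p = 0.0029), without overlap. Bnip3 and Bnip3l encode receptors that mark mitochondria for removal. Bnip3 was at 697 ± 43.97, 563 ± 37.8 and 967 ± 87.8 normalised reads with the WT label, the knockout label and the Sox2 guide, lower in the knockout-labelled group (log2 -0.31 ± 0.092, adjusted p = 0.0069) and higher with the Sox2 guide (log2 0.78 ± 0.092, adjusted p = 1.6e-06), although 98 of its 226 end windows occur in 2 other genes. Bnip3l, at 763 ± 81.2, 677 ± 40.3 and 639 ± 64.2 normalised reads with the WT label, the knockout label and the Sox2 guide, was not called in the first comparison (log2 -0.17 ± 0.10) or the second (log2 -0.087 ± 0.10). With the Sox2 guide against the WT label, Bnip3l was called lower with overlapping values (log2 -0.25 ± 0.10, adjusted p = 0.046). In that comparison Bnip3 was higher (log2 0.47 ± 0.092, adjusted p = 0.00043) and Higd1a lower (log2 -0.54 ± 0.18, adjusted p = 0.018), both without overlap.

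Adm was highest in the knockout-labelled libraries and lowest with the Sox2 guide. Adm (ENSMUSG00000030790, chr7:110627661-110629820, plus strand) encodes adrenomedullin, a secreted peptide that widens vessels and is among the genes hypoxia raises most. It was at 104, 108, 102 and 125 normalised reads with the WT label, 833, 828, 745 and 1003 with the knockout label and 11.5, 6.68, 7.49 and 4.94 with the Sox2 guide. The knockout-labelled mean of 852 ± 108 was 7.77-fold above the WT-labelled mean of 109.7 ± 10.5 (log2 2.94 ± 0.21, adjusted p = 3.6e-09). The Sox2-guide mean of 7.66 ± 2.79, from 13 reads, was 111-fold below the knockout-labelled mean (log2 -6.67 ± 0.21, adjusted p = 2.4e-13) and 14.3-fold below the WT-labelled one (log2 -3.72 ± 0.21, adjusted p = 5.1e-10). No 2 groups overlapped. Vegfa, the vascular growth factor, is the other secreted member. It was at 373, 357, 497 and 401 normalised reads with the WT label, 378, 292, 313 and 201 with the knockout label and 238, 227, 274 and 178 with the Sox2 guide. Its fall in the knockout-labelled group was called with overlapping values (log2 -0.48 ± 0.18, adjusted p = 0.026) and was lost without knockout-labelled replicate 4 or WT-labelled replicate 3. The Sox2-guide values were below all WT-labelled ones (log2 -0.83 ± 0.18, adjusted p = 0.001). Car9, the surface carbonic anhydrase often used as a mark of hypoxia, had 1, 2 and 2 reads and was not tested.

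The growth and stress targets split. Ankrd37, an ankyrin repeat protein, fell 8.58-fold in the knockout-labelled group, from 90.6 ± 16.1 to 10.6 ± 3.45 (log2 -3.01 ± 0.29, adjusted p = 9.5e-08), and rose to 36.4 ± 7.75 with the Sox2 guide (log2 1.71 ± 0.29, adjusted p = 6.8e-05). It overlaps Ufsp2 on the other strand. Ndrg1, a stress-induced growth suppressor, rose from 911 ± 23.5 to 1479.6 ± 46.5 (log2 0.70 ± 0.082, adjusted p = 1.2e-06) and was at 1289 ± 139.8 with the Sox2 guide (log2 -0.20 ± 0.082, adjusted p = 0.041, a call lost in 9 of 12 fits that left out 1 library). Ddit4, an inhibitor of the growth kinase mTORC1, rose from 434 ± 25.8 to 867 ± 75.9 (log2 0.99 ± 0.11, adjusted p = 4.3e-07) and was at 692 ± 92.5 with the Sox2 guide (log2 -0.33 ± 0.11, adjusted p = 0.013, lost without knockout-labelled replicate 1 or Sox2-guide replicate 3). Against the WT-labelled libraries both stayed higher with the Sox2 guide, without overlap (log2 0.49 ± 0.082, adjusted p = 9.2e-05 and log2 0.66 ± 0.11, adjusted p = 7.2e-05).

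Kdm3a and P4ha1 were low in both Prkcz-/- groups. Kdm3a, a histone demethylase, was at 636, 776, 832 and 699.8 normalised reads with the WT label, 417, 344, 385 and 207 with the knockout label and 419, 501, 352 and 306 with the Sox2 guide. It fell 2.18-fold (log2 -1.16 ± 0.19, adjusted p = 5.1e-05) and did not pass between both Prkcz-/- groups (log2 0.25 ± 0.19, adjusted p = 0.28), which overlapped. P4ha1, a hydroxylase that lets collagen fold, was at 1446 ± 65.1, 1041 ± 100.3 and 762 ± 89.5 normalised reads with the WT label, the knockout label and the Sox2 guide. It fell in the knockout-labelled group (log2 -0.48 ± 0.10, adjusted p = 0.00037) and again with the Sox2 guide (log2 -0.45 ± 0.10, adjusted p = 0.00071).

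**Figure D4:**
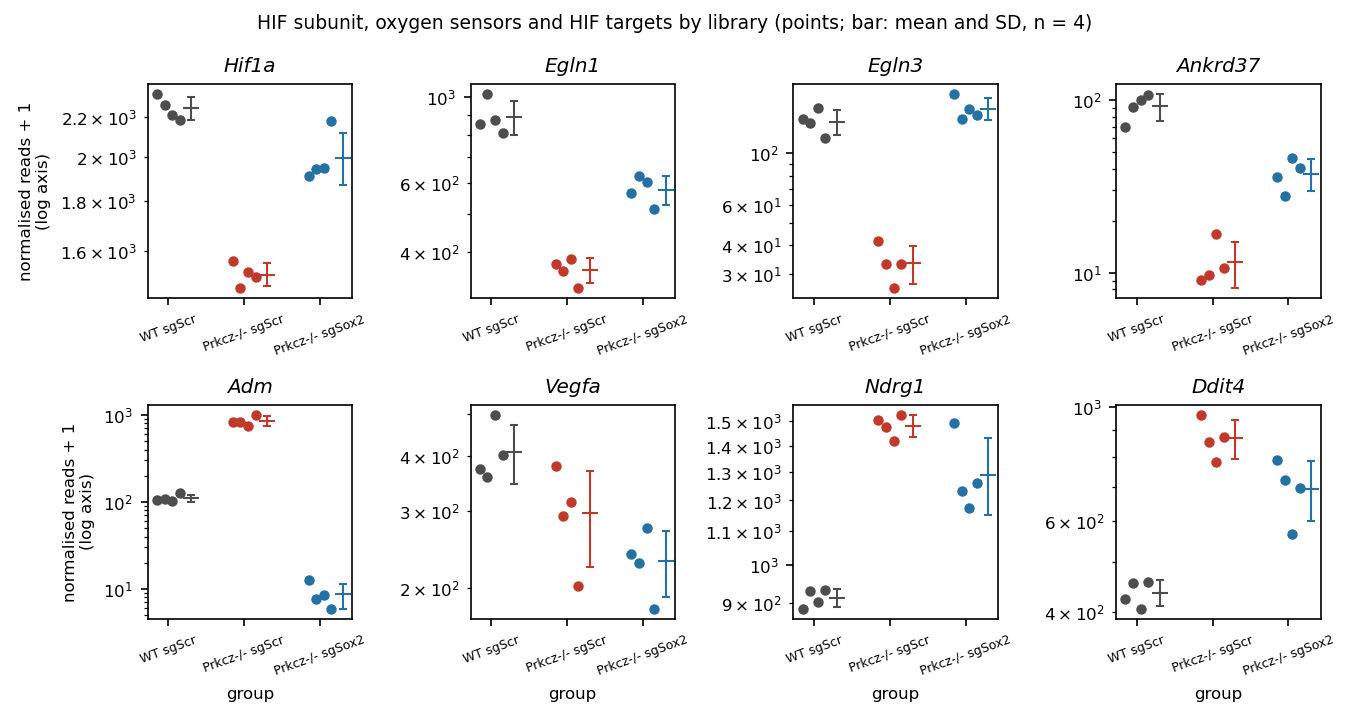
Points are libraries, bars beside them are the mean and SD of 4 libraries, and the vertical axes are logarithmic, in normalised reads + 1. Hif1a, Egln1, Egln3 and Ankrd37 are lowest in the knockout-labelled group (Prkcz-/- sgScr), Adm is highest there, and Ndrg1 and Ddit4 are above the WT-labelled values in both Prkcz-/- groups.

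**Figure D5:**
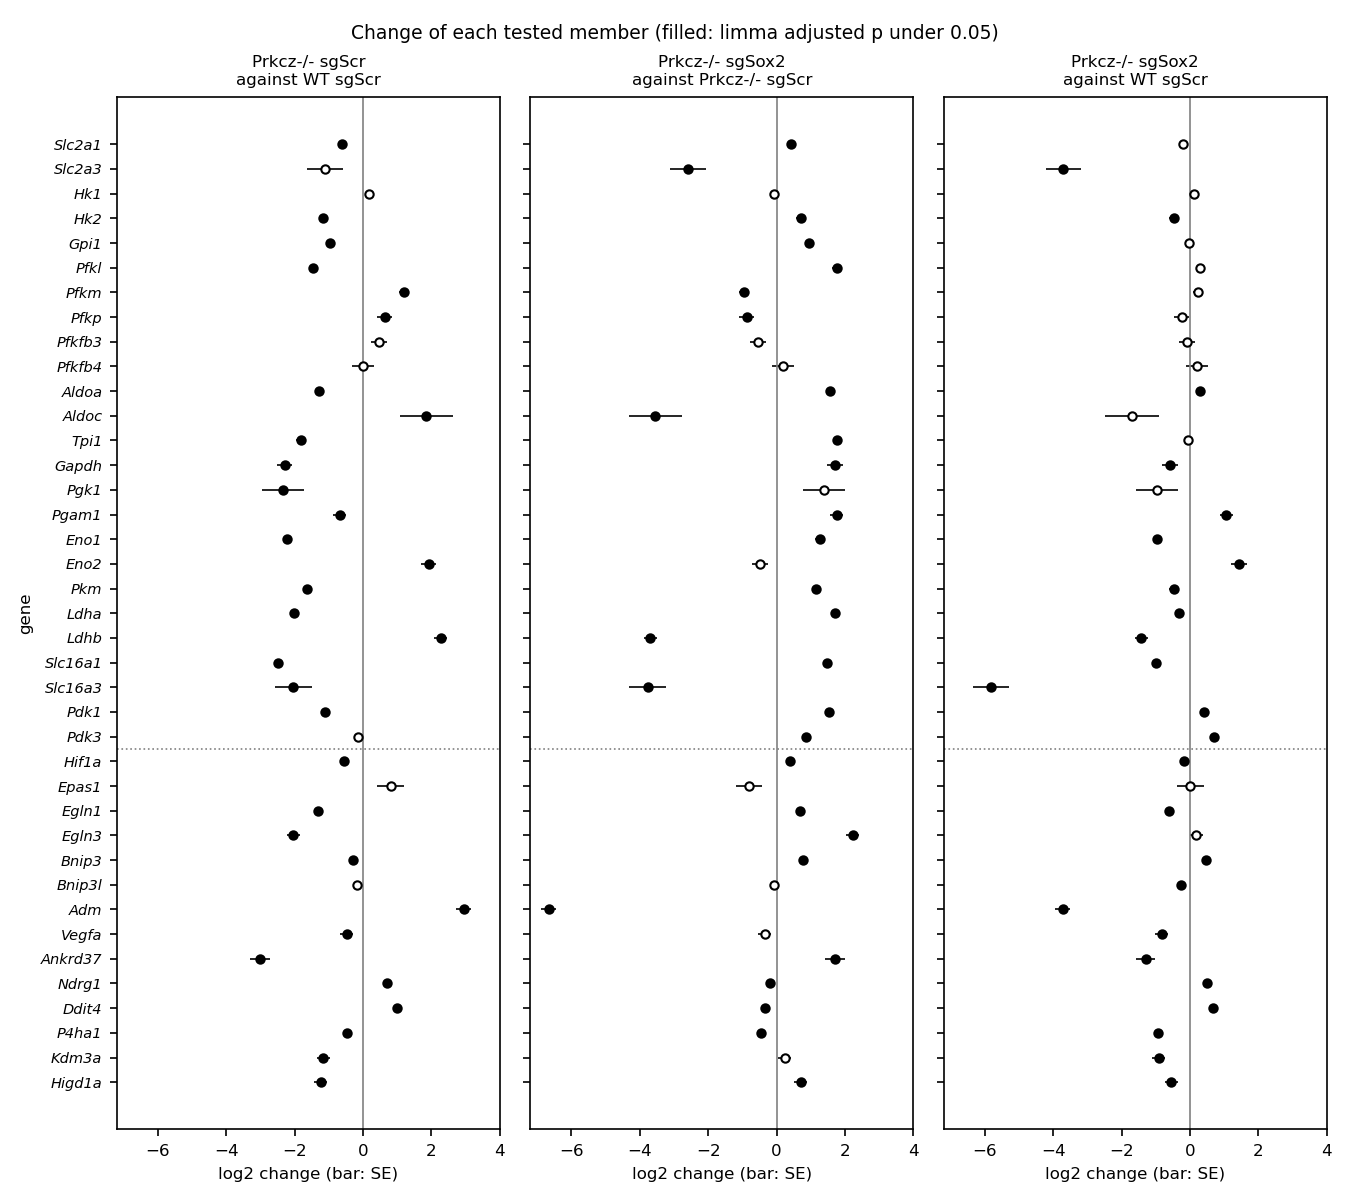
Each point is the log2 change of a tested member with its SE as a bar, in the 3 comparisons named above the panels, and filled points passed (limma adjusted p under 0.05). Glycolysis members stand above the dotted line and other HIF target members below it, and Adm has the largest change, -6.67 in the middle panel.

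Genes next to the pathway, from lists that hold no member, were counted in the same fits. All 10 genes of the pentose phosphate pathway, the branch that makes NADPH and ribose from glucose, were tested: 8 fell and none rose in the knockout-labelled group, and 9 rose and none fell with the Sox2 guide. Tkt, transketolase, was at 1776 ± 80.1, 446 ± 47.8 and 1499 ± 182 normalised reads with the WT label, the knockout label and the Sox2 guide (log2 -1.997 ± 0.10, adjusted p = 3.4e-11 and log2 1.75 ± 0.10, adjusted p = 2.8e-10). G6pdx, the entry enzyme, was at 301 ± 35.3, 158 ± 27.4 and 686 ± 124 normalised reads with the WT label, the knockout label and the Sox2 guide and with the Sox2 guide exceeded the WT-labelled level (log2 1.18 ± 0.15, adjusted p = 5.9e-06). Of 35 tested genes of pyruvate entry and the TCA cycle, 20 fell and 8 rose in the knockout-labelled group, and 26 rose and 6 fell with the Sox2 guide. Gpd2, the mitochondrial glycerol phosphate dehydrogenase that passes electrons from glycolysis to the respiratory chain, was at 3490.5 ± 82.2, 781 ± 72.5 and 2170.0 ± 258 normalised reads with the WT label, the knockout label and the Sox2 guide (log2 -2.16 ± 0.093, adjusted p = 5.2e-12 and log2 1.47 ± 0.093, adjusted p = 1e-09). Idh3a, a subunit of isocitrate dehydrogenase, fell in the knockout-labelled group (log2 -1.79 ± 0.10, adjusted p = 2e-10). Pdk2, a relative of Pdk1 and Pdk3, went the other way, at 16.5 ± 3.33, 153 ± 13.5 and 25.6 ± 13.4 normalised reads with the WT label, the knockout label and the Sox2 guide (log2 3.16 ± 0.34, adjusted p = 4.3e-07 and log2 -2.69 ± 0.34, adjusted p = 3.6e-06). Pcx, the carboxylase that feeds pyruvate into the cycle, rose in the knockout-labelled group as well (log2 2.33 ± 0.29, adjusted p = 1.9e-06).

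Lists outside that route were mixed. Of 9 tested further glycolysis isozymes, 4 rose and 3 fell in the knockout-labelled group, among them Bpgm, which makes the haemoglobin ligand bisphosphoglycerate (log2 1.51 ± 0.16, adjusted p = 4.8e-07), and Adpgk, the ADP-dependent glucokinase (log2 -1.25 ± 0.23, adjusted p = 0.00017). With the Sox2 guide 2 of these rose and 5 fell. Of 13 tested genes of gluconeogenesis and glucose sensing, 3 rose and 5 fell, and then 6 rose and 3 fell. Pck2, the mitochondrial carboxykinase of gluconeogenesis, was at 188 ± 24.9, 707 ± 93.3 and 312 ± 46.9 normalised reads with the WT label, the knockout label and the Sox2 guide (log2 1.91 ± 0.14, adjusted p = 2.9e-09 and log2 -1.18 ± 0.14, adjusted p = 1.3e-06). Txnip, a brake on glucose uptake, fell with the Sox2 guide against the knockout label (log2 -1.24 ± 0.22, adjusted p = 0.00013). Its means were 134 ± 15.1, 358 ± 92.0 and 153 ± 50.2 normalised reads with the WT label, the knockout label and the Sox2 guide. Arrdc4, on the same list, was higher than with the WT label in both Prkcz-/- groups (log2 2.72 ± 0.29, adjusted p = 3.3e-07 and log2 2.55 ± 0.29, adjusted p = 1.6e-06), from 10, 86 and 89 reads in the 3 groups. Myc, a factor that raises glycolysis genes, fell in the knockout-labelled group (log2 -1.33 ± 0.31, adjusted p = 0.0013), at 168 ± 55.7, 65.1 ± 19.6 and 75.7 ± 30.1 normalised reads with the WT label, the knockout label and the Sox2 guide. Of 10 tested glycogen genes, 6 rose and 2 fell in the knockout-labelled group, where Gbe1, the branching enzyme, which also stands among the further HIF targets, fell (log2 -1.60 ± 0.16, adjusted p = 1.3e-07) and Ppp1r3c, which targets a phosphatase to glycogen, rose (log2 2.39 ± 0.34, adjusted p = 1e-05). With the Sox2 guide 2 rose and 3 fell, those 2 genes each in the opposite direction (log2 1.65 ± 0.16, adjusted p = 1.2e-07 and log2 -3.24 ± 0.34, adjusted p = 4.3e-07).

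Of 15 tested subunits and regulators of the hypoxia-inducible factor, 5 rose and 4 fell in the knockout-labelled group, and 5 rose and 5 fell with the Sox2 guide. Arnt2, a partner subunit prominent in neurons, rose in both steps, at 71.95 ± 15.1, 226 ± 35.6 and 433 ± 36.2 normalised reads with the WT label, the knockout label and the Sox2 guide (log2 1.65 ± 0.17, adjusted p = 2.3e-07 and log2 0.95 ± 0.17, adjusted p = 0.00013). Ep300, a coactivator of the factor, was at 1569.5 ± 101, 3035 ± 39.97 and 2337 ± 104 normalised reads with the WT label, the knockout label and the Sox2 guide and highest in the knockout-labelled group (log2 0.95 ± 0.070, adjusted p = 4.1e-09). Of 46 tested further HIF targets, 16 rose and 19 fell in the knockout-labelled group, and 14 rose and 16 fell with the Sox2 guide. Tfrc, the transferrin receptor, showed the smallest adjusted p of that list in both comparisons, at 2450.0 ± 53.2, 525 ± 54.4 and 2576 ± 169.8 normalised reads with the WT label, the knockout label and the Sox2 guide (log2 -2.23 ± 0.084, adjusted p = 1.1e-12 and log2 2.30 ± 0.084, adjusted p = 1.1e-12). Errfi1, an inhibitor of the EGF receptor, was at 1759 ± 43.2, 163 ± 28.1 and 255 ± 47.8 normalised reads with the WT label, the knockout label and the Sox2 guide and low in both Prkcz-/- groups (log2 -3.44 ± 0.14, adjusted p = 2.4e-12). Plod2, which modifies collagen for cross-linking, was at 1279 ± 67.3, 399 ± 42.96 and 289 ± 26.98 normalised reads with the WT label, the knockout label and the Sox2 guide, and its value with the Sox2 guide was below that with the WT label (log2 -2.15 ± 0.10, adjusted p = 5.5e-11). Klf7, a zinc finger factor, rose in the knockout-labelled group and fell with the Sox2 guide (log2 1.22 ± 0.089, adjusted p = 3.7e-09 and log2 -1.85 ± 0.089, adjusted p = 3.2e-11). The shares called among all genes, given above for each comparison, are the background for each of these counts.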

How the data were processed

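For every gene the authors deposited a signal scaled to depth, each library summing to 10000000, from QuantSeq 3′ forward libraries of 200 ng RNA read to 75 nt, per the labels' protocols. GRCm38 is the build named in the submitters' processing notes. The sources used here do not name the aligner, the counting, its use of strand or any use of molecular identifiers. Dividing by the smallest step of a library gave whole reads, within 0.01 read, for 100% of values, and depths of 2.67 to 5.20 M reads. Low genes are thus limited by few reads. Symbols and coordinates are from GENCODE vM21 (23002 of 23106 identifiers matched).

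The 12676 genes whose mean reached 10 normalised reads were fitted on log2(value + 1) over all 12 libraries with limma 3.58.1 in R 4.3.3 (trend option, group means), with Benjamini-Hochberg adjustment over all tested genes and calls at an adjusted p under 0.05. A log2 change on this scale understates that of low genes. The fit was tested on simulated data with far fewer changed genes than were called here, so that test does not check these calls. Alternatives were TMM and quantile scaling, scaling without mitochondrial genes, a pseudocount of 5, no filter, a minimum of 50, edgeR 4.0.16 and DESeq2 1.42.0 on the recovered reads, only the 8 libraries compared, a replicate block, and leaving out each library. The members, gene lists and tests were chosen with earlier results of these data known. All 12 values are given for members whose mean reached 50 normalised reads that were called without overlap and at least 2-fold in either of the first 2 comparisons, and for Hif1a, Epas1, Egln1, Egln3 and Vegfa. They are also given for Pgk1, whose mean was 17.8. Genes of other lists are the 2 with the smallest adjusted p per direction and comparison, or some of these. The results of other marker lists are not reported here.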

Additional observations from a re-analysis of the deposited data

Results flagged for a closer look

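Among the 40 members in 3 groups, 120 groups of 4 libraries were searched for a library far from its 3 companions, by Dixon's criterion on the gap as a share of the group's range, and 7 were found. Chance alone gives about 1 in 20. In the knockout-labelled group, Gpi1 was at 563 normalised reads in replicate 4, above the others, and Pkm was at 2715 in the same library. Tpi1 was at 617 in replicate 3, below its companions, and Ldha at 1438 in replicate 2, above them. In the Sox2-guide group, Hif1a was at 2176 in replicate 4, above the others. Car9 was at 3.25 in WT-labelled replicate 1, from 1 read, and at 4.45 in Sox2-guide replicate 2, from 2 reads, with 0 in the other libraries of these groups. None of the 7 was Sox2-guide replicate 1, and none placed a library inside the range of another group for the 5 genes other than Car9.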

How the results depend on the processing

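Total counts of called genes stayed within 1.5 times their main value under every alternative run, but not all counts by direction: the glycolysis members called higher went from 5 to 3 in the knockout-labelled against the WT-labelled libraries with quantile scaling or without WT-labelled replicate 3 or knockout-labelled replicate 1 or 3, and from 5 to 3 in the Sox2-guide against the WT-labelled libraries with DESeq2, where 23.3% of all genes were called higher and 25.5% lower. The other members called lower with the Sox2 guide against the knockout label went from 4 to 2 without knockout-labelled replicate 1 or Sox2-guide replicate 3. The totals were 18 to 21 glycolysis members and 11 to 13 other members in the knockout-labelled against the WT-labelled libraries when each library was left out in turn. The glycolysis median there was -0.976 with a pseudocount of 5 and ran from -1.134 to -0.952 with a library left out, and that of the other members from -0.530 to -0.389. For the Sox2-guide against the knockout-labelled libraries, the median of the other members changed sign without a filter (-0.087), which adds Car9, and ran from -0.021 to 0.170 with a library left out. Against the WT-labelled libraries it was -0.255 without a filter and -0.513 with DESeq2. Single members that changed sign were uncalled and near 0. In the first comparison Pfkfb4 was -0.050 with TMM, -0.492 with quantile scaling, -0.043 with edgeR and -0.055 with DESeq2, and ran from -0.233 (without knockout-labelled replicate 4) to 0.163 with a library left out. In the second, Hk1 ran from -0.178 to 0.031 (without knockout-labelled replicate 4). In the third, Epas1 was -0.072 with TMM and -0.026 without mitochondrial genes. With a library left out, Epas1 ran from -0.207 (without Sox2-guide replicate 1) to 0.365, Hk1 from -0.009 (without that library) to 0.199, Gpi1 from -0.088 to 0.066 (without Sox2-guide replicate 2), Pfkfb3 from -0.219 to 0.064 (without Sox2-guide replicate 3), and Tpi1 from -0.197 to 0.066 (without Sox2-guide replicate 4). The cause was not tested. Replicate numbers did not pair the libraries: 1 of 12 same-number pairs had a correlation of deviations over 0.1 (range -0.0399 to 0.133), and 7 of 24 matches were best with the same number. With a replicate block, 8508, 7693 and 6627 genes were called in the 3 comparisons, 20, 21 and 15 of the glycolysis members and 12, 10 and 11 of the others. Values of Slc16a3, Slc2a3 and Pgk1 rest on few reads. With the WT label Pgk1 held 36 reads, where Pgam1 held 138, Tpi1 3168 and Pkm 8456, and the reason was not tested.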
